A study of Mus musculus with 4 samples.

Results

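The genes described here make the lysosome and its proton pump. They are 40 genes of the mouse, chosen by name: 3 transcription factors of the TFEB family, 9 lysosomal membrane proteins, 12 proteins of the lysosomal lumen (hydrolases other than cathepsins, with their helper proteins), and 16 genes of the vacuolar H+-ATPase (V-ATPase), of which 6 belong to the V0 sector, 8 to the V1 sector and 2 are accessory. All 40 were found among the 21523 Ensembl gene identifiers of the deposited table, and all 40 entered the test. Their messenger RNA was sequenced in Raw264.7 cells, an established macrophage-like mouse line that arose from a tumour induced by a leukaemia virus. Cells given 0.5 mM 1,5-anhydroglucitol (1,5-AG) for 24 h gave 2 libraries, and control cells with no treatment gave 2 libraries. Both groups were the same line grown in DMEM with fetal bovine serum and antibiotics. The labels name no vehicle and no culture time for the controls, and they do not say whether the libraries of a group came from separate cultures. The p-values therefore reflect the spread between these libraries alone, and that spread may be technical.

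Lysosomes are acidic organelles in which macrophages break down what they have taken up. The V-ATPase acidifies them: its V1 sector hydrolyses ATP on the cytosolic face and its V0 sector carries protons through the membrane. TFEB, TFE3 and MITF are related basic helix-loop-helix factors that bind a palindromic element with the core CACGTG near the start of many lysosomal genes. Phosphorylation at the lysosome surface by the kinase complex mTORC1 holds these factors in the cytosol, and the folliculin complex takes part in that control through the Rag GTPases.

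The promoters of 35 of the 40 genes were found in a table of RefSeq windows on GRCm38.p6, the assembly of mm10, which run from 250 bases before to 50 bases after a transcription start. The letters CACGTG, and the longer TCACGTG that contains them, were searched on both strands. At least 1 window with TCACGTG was found for 10 of the 35 genes, namely Lamp1, Mcoln1, Clcn7, Gla, Glb1, Gaa, Atp6v0b, Atp6v0d1, Atp6v0e and Atp6v1a, and the same 10 held CACGTG. By window this was 10 of 46 windows of these genes (21.7%), against 3.765% of all 32851 windows and 6.37% of the windows of genes tested. For the shorter CACGTG the shares were 21.7%, 7.15% and 10.45%. Some of these sequences are shown because they set the gene that passed the test beside genes with the element. Each is given 5′ to 3′ on the strand of its gene, up to the earliest annotated start, with TCACGTG or its reverse complement in capitals.
Gpnmb: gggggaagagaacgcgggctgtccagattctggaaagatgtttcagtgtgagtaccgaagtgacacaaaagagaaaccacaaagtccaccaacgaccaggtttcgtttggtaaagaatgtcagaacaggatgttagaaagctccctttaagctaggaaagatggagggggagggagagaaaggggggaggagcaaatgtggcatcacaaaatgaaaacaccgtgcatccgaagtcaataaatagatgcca
Lamp1: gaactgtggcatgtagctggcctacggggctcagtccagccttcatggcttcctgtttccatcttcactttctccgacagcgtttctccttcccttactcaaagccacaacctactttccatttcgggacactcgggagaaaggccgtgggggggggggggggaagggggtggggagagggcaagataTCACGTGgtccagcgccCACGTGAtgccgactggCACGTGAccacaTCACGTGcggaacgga
Mcoln1: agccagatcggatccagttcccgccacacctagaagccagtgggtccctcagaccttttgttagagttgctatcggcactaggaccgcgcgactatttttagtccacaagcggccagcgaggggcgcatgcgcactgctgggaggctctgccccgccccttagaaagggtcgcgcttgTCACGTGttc
Gla: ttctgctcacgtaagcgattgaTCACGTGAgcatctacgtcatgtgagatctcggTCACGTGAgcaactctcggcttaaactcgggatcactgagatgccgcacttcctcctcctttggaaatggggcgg
Atp6v0b: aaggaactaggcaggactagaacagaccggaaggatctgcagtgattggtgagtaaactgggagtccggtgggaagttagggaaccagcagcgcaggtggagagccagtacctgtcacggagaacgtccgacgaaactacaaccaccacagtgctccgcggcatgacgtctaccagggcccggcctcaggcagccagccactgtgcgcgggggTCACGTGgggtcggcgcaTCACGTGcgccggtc
The Gpnmb stretch (chr6:49036268-49036517, plus strand) held neither set of letters. Of the 35 genes 25, Gpnmb among them, had no window with TCACGTG, so its lack does not set Gpnmb apart. The Lamp1 stretch (chr8:13158911-13159160, plus strand) held 4 matches, with the first base of CACGTG at -61, -45, -28 and -15 relative to the RefSeq start. The Mcoln1 stretch (chr8:3500269-3500456, plus strand) shows 1 of the 2 matches in its window. The Gla stretch (chrX:134601126-134601255, minus strand) shows both matches of its window, with CACGTG at -227 and -194. The Atp6v0b stretch (chr4:117887334-117887579, minus strand) also shows both, at -36 and -18. A match describes these letters only and does not show that a factor was bound.

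The libraries held 14616556 and 15112965 gene-assigned fragments with 1,5-AG, and 15163807 and 16228673 in control, as recovered from the deposited FPKM (fragments divided by exon length and by library size). Of the members, the one with the fewest fragments in any library still had 460. All 6 macrophage markers examined had a mean above 1 FPKM, Cd68 with 472 and 479 FPKM with 1,5-AG, against 499.6 and 497.9 FPKM in control. Markers of fibroblasts, T cells, B cells, neutrophils, dendritic cells and melanocytes each averaged 0.308 FPKM or less where they were in the table. Marker genes of osteoclasts, the acid-secreting bone cells that this line can form, are treated beside the V-ATPase.

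The comparison asks how 1,5-AG changed these genes. One member, Gpnmb, passed the test and fell, and the other 39 had smaller differences that did not pass, 28 of them negative. The test was limma on log2(FPKM + 1), adjusted by the Benjamini-Hochberg method over all 11120 genes with a mean of at least 1 FPKM, at an adjusted p of 0.05. It called 1.46% of all genes tested in either direction, 0.809% higher and 0.647% lower, and 1 of the 40 members lower and 0 higher. At an unadjusted p under 0.05 there were 11 members lower and 1 higher, where 9.04% and 9.15% of all genes tested were. Of the 40 members 29 had a negative log2 fold change (1,5-AG minus control), or 72.5%, against 50.9% of all genes tested. The median of the members was -0.07 and that of all genes tested -0.0025. The groups did not overlap in 27 members, 20 lower and 7 higher with 1,5-AG, where 49.6% of all genes tested did not overlap, 25.4% lower and 24.2% higher. On recovered fragments limma's voom called 5 members lower (Gpnmb, Psap, Grn, Tcirg1 and Atp6v1a) and 1 higher (Lipa), where it called 8.29% of all genes, 4.64% lower and 3.65% higher. The members were more abundant than all genes tested, with a median of 35.2 FPKM against 8.89 FPKM. Their replicates also lay closer together. The median log2 gap was 0.038 against 0.070 with 1,5-AG, and 0.059 against 0.0745 in control. Counts of calls and of groups apart depend on that spread, so the shares of all genes are not from genes of like precision. These are counts over related genes, given as a description with no test of the list. In whole cultures, fewer cells of a kind and less RNA per cell cannot be told apart.

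Gpnmb (ENSMUSG00000029816, chr6:49036546-49070929 in mm10) encodes a transmembrane glycoprotein of macrophages, osteoclasts and melanocytes that is found at lysosomes and is a known target of MITF. It had 92.5 and 92.4 FPKM with 1,5-AG, against 119 and 121 FPKM in control, from 8808 and 9094 fragments against 11737 and 12834. The groups were well apart, with 1,5-AG lower by 23.0% of the mean. The log2 fold change of Gpnmb was -0.37 (SE 0.03, limma adjusted p = 0.0244). It was the one member with a change of more than 0.21 in size on this scale. With a library left out the fold change stayed at -0.39 to -0.36 but the call was lost: the limma adjusted p was 0.135 without 1,5-AG replicate 1, 0.128 without 1,5-AG replicate 2, 0.0935 without control replicate 1 and 0.111 without control replicate 2. The whole table then held 2 to 10 called genes in place of 162. The call was also lost without the filter on low values (0.0887) and without a variance trend (0.105). The summed level of the 6 macrophage markers was 3933 and 3841 FPKM with 1,5-AG, against 5459 and 5313 FPKM in control. Most of that sum is Lyz2, the lysozyme gene, which fell (-0.56, limma adjusted p = 0.0169; with a library left out -0.58 to -0.54 and 0.0891 to 0.104). Of the other markers Adgre1 (-0.32), Csf1r (-0.11) and Cd68 (-0.07) were lower without overlap, and Spi1 (-0.16) and Itgam (0.04) overlapped. None of these 5 passed by limma, and voom called Adgre1 and Csf1r lower (voom adjusted p = 0.00598 and 0.0215). The part of macrophage state in the value of Gpnmb was not tested.

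**Figure D1:**
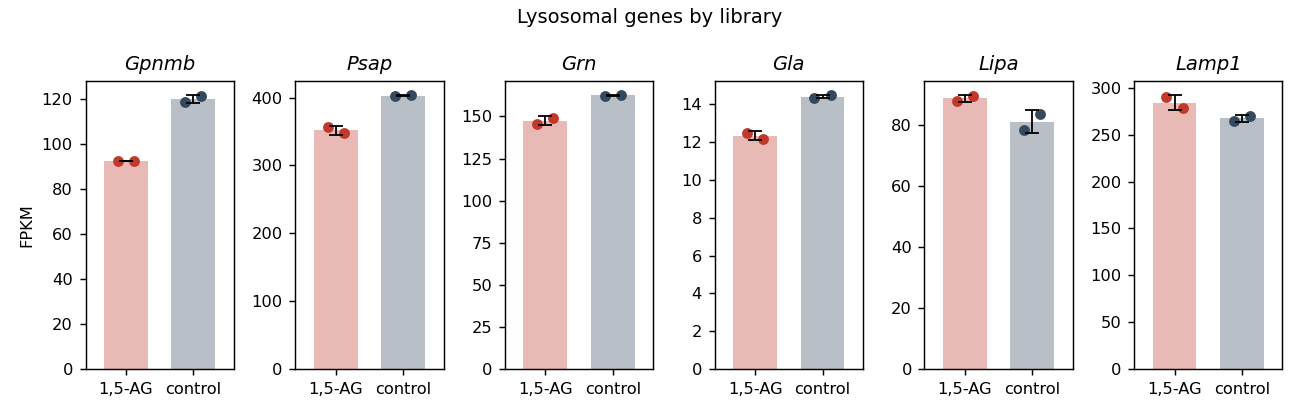
FPKM (linear axis from 0) of 6 lysosomal genes, with points for the 2 libraries of each group, bars for the mean and error bars for the SD. In Gpnmb, Psap, Grn and Gla both 1,5-AG libraries lie below both control libraries, in Lipa and Lamp1 above them, and of these genes Gpnmb passed the test.

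The other membrane proteins split in direction, and none of them passed. Of the 9 membrane genes 6 had a negative fold change and the median was -0.11. Clcn7, the chloride-proton exchanger of the lysosome, had 11.9 and 12.02 FPKM with 1,5-AG, against 13.3 and 14.1 FPKM in control (-0.18, limma adjusted p = 0.170). Its groups did not overlap. Mcoln1, the lysosomal calcium channel TRPML1, had 7.17 and 7.45 FPKM with 1,5-AG, against 8.07 and 8.47 FPKM in control (-0.16, limma adjusted p = 0.243). Ostm1, the partner subunit of the Clcn7 protein, overlapped between groups with a fold change of -0.03 (95% interval -0.24 to 0.17). Lamp1 and Lamp2, the main glycoproteins that line the lysosomal membrane, differed in sign. Lamp1, the most abundant of the 9, had 290.4 and 279 FPKM with 1,5-AG, against 265 and 269.9 FPKM in control (0.09, 95% interval -0.01 to 0.18). Lamp1 shares 249 exon bases with Grtp1 on the opposite strand, and the strand setting used in counting was not stated. Lamp2 had a fold change of -0.11, with the groups apart. Under quantile normalization Lamp1 had 0.03 and Lamp2 -0.13, so the size of the Lamp1 value depended on the scaling. The ratio of Lamp1 to Lamp2 was 9.999 and 9.19 with 1,5-AG, against 8.53 and 8.15 in control, higher in both 1,5-AG libraries. With 2 libraries against 2 an exact permutation test of such a ratio cannot go below a two-sided p of 0.333. Npc1, which exports cholesterol from lysosomes, had -0.15, with the groups apart. Npc1 shares 511 exon bases with Rmc1 on the opposite strand. Rmc1 averaged 5.17 FPKM over the libraries, beside 5.605 FPKM for Npc1. Scarb2, the receptor that carries glucocerebrosidase to lysosomes, and the tetraspanin gene Cd63 overlapped between groups, with 0.06 and 0.0018.

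Among the lumenal proteins 10 of 12 had a negative fold change, with a median of -0.09, and 0 passed the limma test. At an unadjusted p under 0.05 there were 4 lower (Psap, Gla, Grn and Npc2) and 1 higher (Lipa), where 9.04% and 9.15% of all genes tested were. Psap, the precursor of the saposins that present sphingolipids to hydrolases, was the most abundant of all 40 genes. It had 357 and 347 FPKM with 1,5-AG, against 402 and 404 FPKM in control. Both 1,5-AG libraries were lower, and the fold change was -0.19 (SE 0.03, limma adjusted p = 0.0735). Under some alternatives Psap passed, at limma adjusted p of 0.000397 on recovered fragments (voom), 0.0395 after quantile normalization and 0.0403 among genes averaging 5 FPKM or more. Gla, the alpha-galactosidase that removes terminal galactose from globosides, had 12.5 and 12.2 FPKM with 1,5-AG, against 14.3 and 14.5 FPKM in control (-0.21, limma adjusted p = 0.115). Grn, the progranulin gene, whose protein travels to the lysosome with prosaposin, had 145 and 149 FPKM with 1,5-AG, against 162 and 163 FPKM in control (-0.14, limma adjusted p = 0.131). Again the groups did not overlap in either gene.

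Npc2, which hands cholesterol to the Npc1 protein, had 43.4 and 42.0 FPKM with 1,5-AG, against 46.0 and 47.1 FPKM in control (-0.12). Lipa, the acid lipase that releases cholesterol and fatty acids from lipoprotein esters, went the other way, with 87.8 and 89.5 FPKM with 1,5-AG, against 78.3 and 83.6 FPKM in control (0.13, limma adjusted p = 0.233). Lipa and Npc2 were thus on opposite sides of 0, and neither passed. Gaa, the acid alpha-glucosidase of glycogen, was the other lumenal gene with a positive value, 0.06 (95% interval -0.06 to 0.18). The glycosidase genes Hexa, Gusb and Manba had -0.11, -0.07 and -0.12 without overlap. Hexa shares 255 exon bases with Tmem202 on the opposite strand. Glb1, the beta-galactosidase, which shares 165 exon bases with Tmppe on the same strand, Neu1, the sialidase, and Tpp1, a peptidase, overlapped between groups at -0.08, -0.07 and -0.04. The summed level of the 12 genes was 965 and 951 FPKM with 1,5-AG, against 1030 and 1047 FPKM in control. Without Psap it was 608 and 603 FPKM, against 628 and 643 FPKM.

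**Figure D2:**
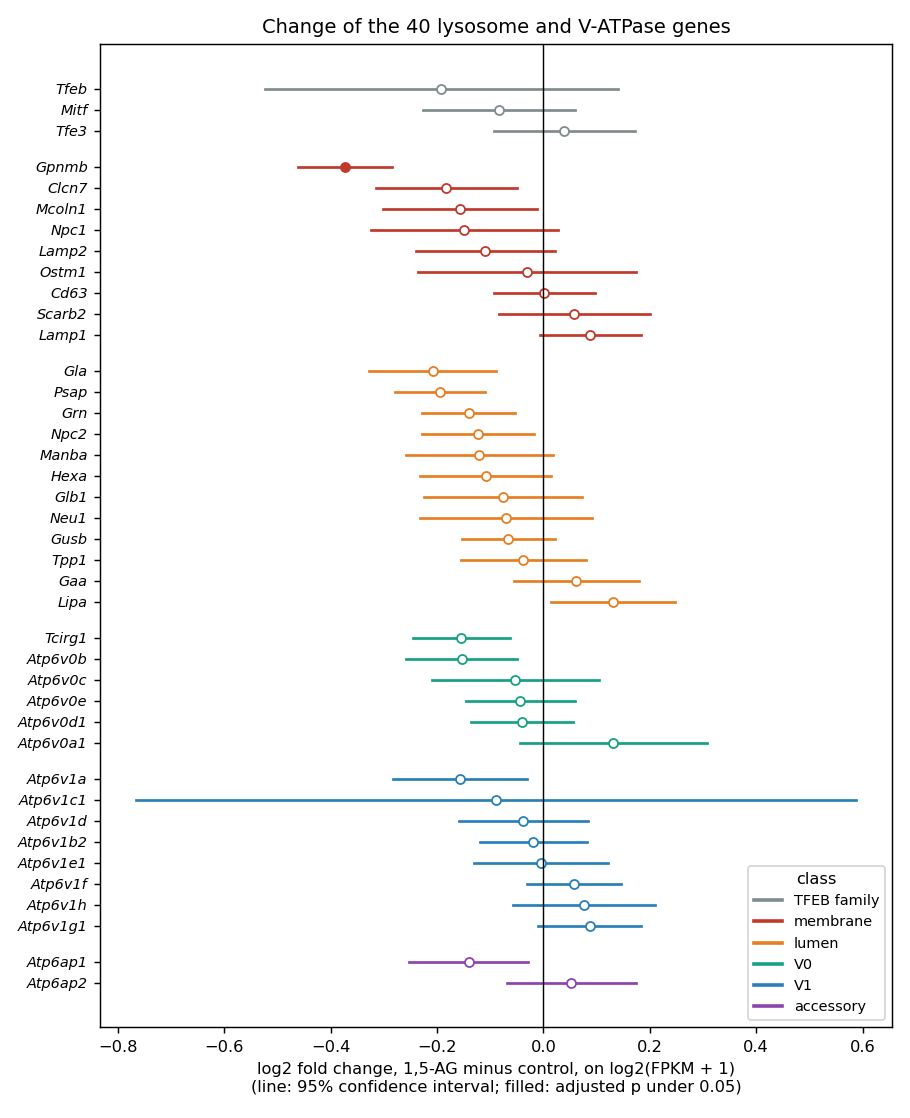
Log2 fold change (1,5-AG minus control, from log2(FPKM + 1)) of each of the 40 genes, with its 95% confidence interval from limma, grouped by class. Gpnmb, at -0.37, is the one filled symbol, and Atp6v1c1 has the widest interval, from -0.77 to 0.59.

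None of the V-ATPase genes passed the limma test, and their differences were small and more often negative than positive. Of the 16 genes 11 had a negative fold change, and the median was -0.04. At an unadjusted p under 0.05 there were 4 lower and 0 higher, where 9.04% and 9.15% of all genes tested were, and voom called 2 lower and 0 higher, where it called 4.64% and 3.65% of all genes. The summed level of the 16 genes averaged 730.7 ± 2.85 FPKM with 1,5-AG and 751.4 ± 3.77 FPKM in control (SD, n = 2 each), lower in both 1,5-AG libraries. In 11 of the 16 the change was less than 0.1 in size, beside 6392 of the 11120 genes tested. The 16 genes were more abundant, with a median of 46.5 FPKM against 8.89 FPKM for all genes tested. Of the 16 genes 7 were lower without overlap, where 25.4% of all genes tested were, and 4 of these were in V0. Tcirg1, the a3 isoform of the proton-path subunit a, which osteoclasts and macrophages place on lysosomes, had 66.2 and 65.8 FPKM with 1,5-AG, against 74.3 and 72.8 FPKM in control (-0.15, limma adjusted p = 0.122). Atp6v0b, a subunit of the proteolipid ring, had 44.7 and 43.7 FPKM with 1,5-AG, against 50.1 and 48.5 FPKM in control (-0.15, limma adjusted p = 0.151). In both genes the 1,5-AG libraries were below the control libraries. Atp6v0a1, the a1 isoform, was higher, with 5.32 and 5.76 FPKM with 1,5-AG, against 4.84 and 5.10 FPKM in control (0.13, limma adjusted p = 0.398). Atp6v0d1 and Atp6v0e had -0.04 each, narrowly without overlap, and Atp6v0c, the main ring subunit, had -0.05 with overlap. Named pseudogenes of Atp6v0c exist in the annotation, and the handling of reads that match several copies was not stated, so its value is uncertain. The summed V0 level averaged 237.5 ± 1.84 FPKM with 1,5-AG and 253.6 ± 5.06 FPKM in control (SD, n = 2 each).

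In the V1 sector the values lay on both sides of 0, and the summed level overlapped, at 378.0 and 378.5 FPKM with 1,5-AG, against 372 and 384.5 FPKM in control. Atp6v1a, the catalytic subunit A, had 72.4 and 77.8 FPKM with 1,5-AG, against 82.4 and 85.2 FPKM in control (-0.16, limma adjusted p = 0.199). Atp6v1b2, the B subunit that alternates with A in the catalytic ring, had 45.3 and 46.7 FPKM with 1,5-AG, against 46.6 and 46.6 FPKM in control (-0.02). The A-to-B ratio was thus 1.599 and 1.67 with 1,5-AG, against 1.77 and 1.83 in control. Atp6v1g1, a small subunit of the outer stalks, had 125 and 121 FPKM with 1,5-AG, against 115 and 117 FPKM in control (0.09, 95% interval -0.01 to 0.18). Atp6v1f, a subunit of the central stalk, had 80.5 and 81.6 FPKM with 1,5-AG, against 77.9 and 77.9 FPKM in control (0.06), and Atp6v1h, which regulates the coupling of the sectors, had 0.08. These 3 of the 8 V1 genes were higher without overlap, where 24.2% of all genes tested were. Another 2 were lower without overlap, where 25.4% of all genes tested were, and none of the 8 passed. Atp6v1d and Atp6v1e1 had -0.04 and -0.0049.

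Atp6v1c1, the subunit that bridges V1 and V0, varied more between replicates than any other member. It had 15.3 and 11.9 FPKM with 1,5-AG, against 10.8 and 19.0 FPKM in control, from 1251, 1004, 921 and 1726 fragments in that order. The control libraries alone spanned both 1,5-AG values, so the interval of its difference ran from -0.77 to 0.59. Tfeb had the next largest gap between replicates. The accessory genes differed in sign. Atp6ap1, which helps V0 assembly, had 60.4 and 63.7 FPKM with 1,5-AG, against 69.4 and 67.6 FPKM in control (-0.14, limma adjusted p = 0.194). Atp6ap2, the prorenin receptor, had 51.4 and 54.3 FPKM with 1,5-AG, against 49.9 and 52.0 FPKM in control (0.05), with overlap.

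**Figure D3:**
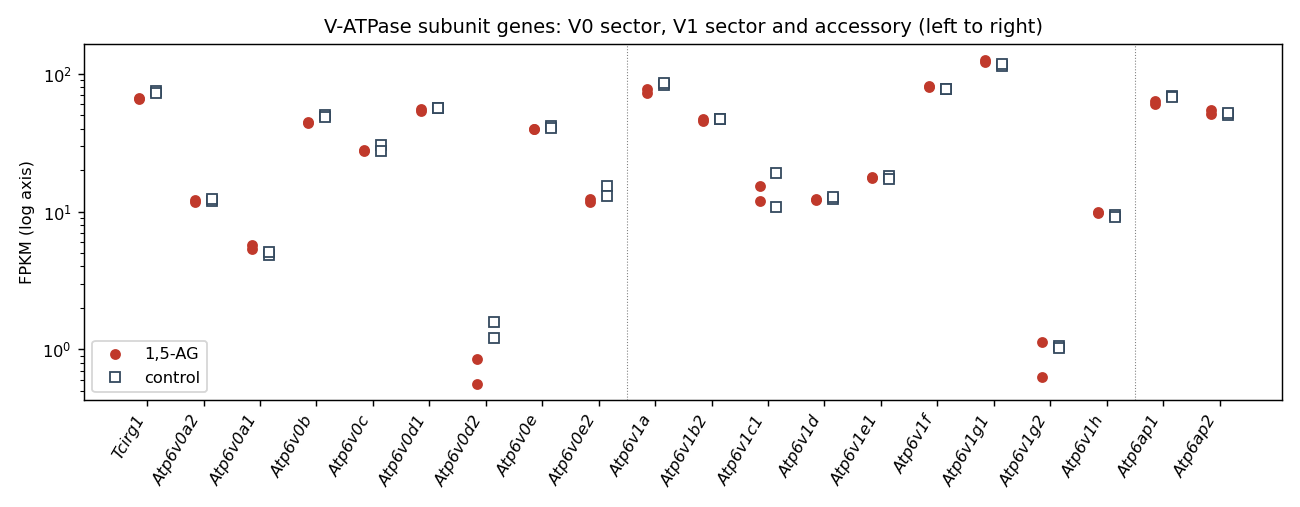
FPKM on a log axis of V-ATPase genes in each library, 1,5-AG as filled circles left of control as open squares, with other isoforms of the subunits added. Tcirg1 is the most abundant a subunit, Atp6v0d2 and Atp6v1g2 are the least abundant genes drawn, and the replicates of Atp6v1c1 are widely spread.

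Tcirg1 was the most abundant a isoform in all 4 libraries. Of the FPKM of the a-subunit genes Tcirg1, Atp6v0a2 and Atp6v0a1, Tcirg1 made up 79.5% and 78.7% with 1,5-AG, against 81.7% and 80.7% in control. Atp6v0d2, the d2 isoform that osteoclasts use, was scarce, with 0.857 and 0.560 FPKM with 1,5-AG, against 1.58 and 1.20 FPKM in control, from 34 and 23 fragments against 65 and 53. Its fold change of -0.49 on the log2(FPKM + 1) scale did not pass (limma adjusted p = 0.227), and on recovered fragments the log2 fold change was -0.98 (voom adjusted p = 0.0458). Of 20 further V-ATPase subunit and assembly genes 13 were tested and 0 passed by limma. At an unadjusted p under 0.05, where 9.04% of all genes tested were lower, there were 2 lower, Atp6v0d2 and Rogdi, a partner of the V-ATPase (-0.21). Voom called 1 lower, Atp6v0d2, and 0 higher, where it called 4.64% and 3.65% of all genes. Of 8 osteoclast markers 7 were in the table, with summed levels of 41.6 and 39.7 FPKM with 1,5-AG, against 59.8 and 57.4 FPKM in control. This sum is mostly Ctsk, the collagenolytic cathepsin, which fell to 29.5 and 28.7 FPKM with 1,5-AG, against 46.8 and 45.8 FPKM in control (-0.65, limma adjusted p = 0.0164; with a library left out -0.67 to -0.64 and 0.0778 to 0.104). The fusion gene Dcstamp overlapped (-0.0084), and Acp5, Ocstamp, Mmp9 and Oscar were at 1.072 FPKM or less in every library and did not enter the test. Mmp9 was higher without overlap, at 0.483 and 0.206 FPKM with 1,5-AG, against 0.0745 and 0.0174 FPKM in control. These came from 25 and 11 fragments against 4 and 1. Ocstamp was lower without overlap, from 5 and 10 fragments against 18 and 17, and Acp5 and Oscar overlapped. The part of osteoclast-like expression in the values of Tcirg1, Clcn7 and Gpnmb was not tested.

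None of the TFEB family genes passed the test. Tfeb had 5.70 and 5.37 FPKM with 1,5-AG, against 7.47 and 5.58 FPKM in control (-0.19, 95% interval -0.52 to 0.14). For Tfeb the gap between the control libraries was larger than the difference of the groups. Tfe3 was the most abundant of the 3, with 13.5 and 13.9 FPKM with 1,5-AG, against 13.7 and 12.9 FPKM in control (0.04, 95% interval -0.09 to 0.17). Mitf had 9.97 and 9.55 FPKM with 1,5-AG, against 10.1 and 10.7 FPKM in control (-0.08, 95% interval -0.23 to 0.06), lower without overlap. These are RNA levels and say nothing of where the proteins were in the cell. The 10 members with TCACGTG in a window had fold changes of -0.21 to 0.09, 8 of them negative with a median of -0.12. The 25 members whose windows lacked it ran from -0.37 to 0.13, 18 of them negative with a median of -0.07.

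Among genes that act on these factors, Fnip2 fell with 1,5-AG. It encodes a partner of folliculin, in the complex that acts on the Rag GTPases to set the phosphorylation of TFEB and TFE3. Fnip2 (ENSMUSG00000061175, chr3:79455974-79567796) had 30.9 and 31.0 FPKM with 1,5-AG, against 46.2 and 46.9 FPKM in control. Its mean decreased by 33.5%. The log2 fold change was -0.57 (SE 0.04, limma adjusted p = 0.0169). As with Gpnmb, the call was lost without any 1 of the 4 libraries, while the fold change stayed at -0.58 to -0.56: the limma adjusted p was 0.0929 without 1,5-AG replicate 1, 0.0891 without 1,5-AG replicate 2, 0.0909 without control replicate 1 and 0.104 without control replicate 2. It was 0.0887 without the filter on low values and 0.0751 without a variance trend. Fnip2 was 1 of 18 genes tested among 19 of the folliculin, Rag, Ragulator and mTORC1 machinery and the related factor gene Tfec. Of these 1 passed lower and 0 higher, where 0.647% and 0.809% of all genes tested did. At an unadjusted p under 0.05 there were 2 lower and 1 higher (9.04% and 9.15% of all genes tested). Voom called 1 lower and 0 higher (4.64% and 3.65% of all genes). In that list 14 of 18 were negative, with a median of -0.06, where 50.9% of all genes tested were negative. Its paralog Fnip1 had -0.11, the folliculin gene Flcn -0.08 and Mtor -0.09, and none of these passed. Lamtor4, a Ragulator subunit, had 17.2 and 19.5 FPKM with 1,5-AG, against 14.99 and 14.1 FPKM in control (0.31, limma adjusted p = 0.125).

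Lysosomal genes outside the 40 also had more negative than positive values, where 50.9% of all genes tested were negative. These lists, like the members, were chosen with earlier results of these data known, so they are no independent support. Of 40 other hydrolases and membrane proteins 39 were tested, 29 were negative, the median was -0.06 and 0 passed by limma, with 11 lower and 1 higher at an unadjusted p under 0.05 (9.04% and 9.15% of all genes tested) and 6 lower and 0 higher by voom (4.64% and 3.65% of all genes). Tpcn1, an endolysosomal cation channel, had 17.7 and 17.1 FPKM with 1,5-AG, against 21.1 and 20.4 FPKM in control (-0.24, limma adjusted p = 0.0917), without overlap. Of 16 genes that sort hydrolases to lysosomes or tether the vesicles 11 were negative, the median was -0.05 and 0 passed by limma, with 5 lower at an unadjusted p under 0.05 and 2 lower by voom, to be read against the same shares. Gga1, an adaptor of the mannose 6-phosphate route, had -0.19 and Sort1, the sorting receptor sortilin, -0.30 (limma adjusted p = 0.138 and 0.176). On recovered fragments voom called Tpcn1 (-0.25, voom adjusted p = 0.00181) and Sort1 (-0.42, voom adjusted p = 0.0173) lower, and not Gga1 (voom adjusted p = 0.0558).

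**Figure D4:**
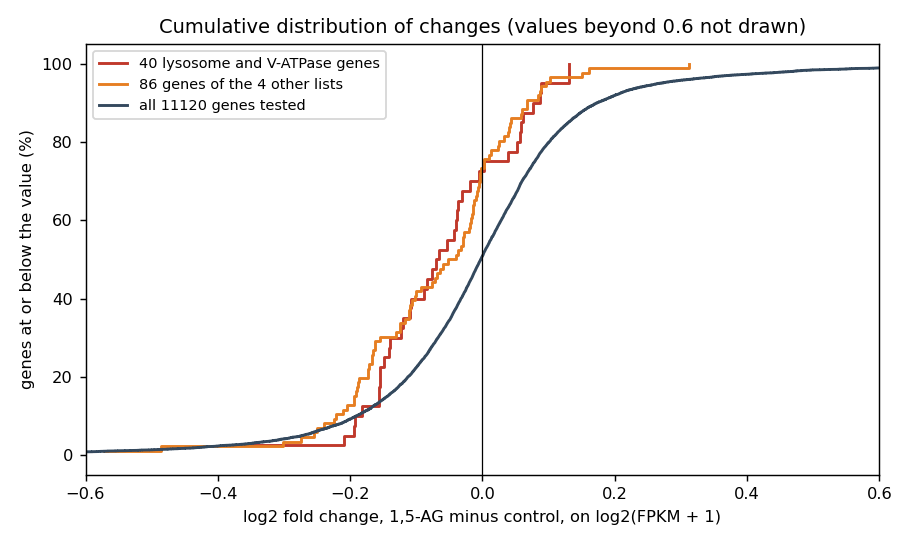
Cumulative share of genes by log2 fold change (1,5-AG minus control, axis cut at 0.6 on each side) for the 40 lysosome and V-ATPase genes, the 86 genes tested of the 4 other lists (V-ATPase, lysosome, sorting, and folliculin with mTORC1) and all 11120 genes tested. At 0 the curve of the 40 genes stands at 72.5% and that of all genes at 50.9%, and of the 40 genes Gpnmb alone lies beyond 0.3 in size.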

How the data were processed

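RNA from Raw264.7 cells was sequenced from 2 libraries with 1,5-AG and 2 control libraries. Trizol extraction and a stranded mRNA library kit were used, per the labels' protocols. The authors deposited FPKM, 1 column per library. The tools were HISAT2, HTSeq, Cufflinks and Trimmomatic with mm10, per the submitters' processing notes. Versions, roles, strand setting and annotation were not stated there.

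Of 21523 identifiers 21508 matched GENCODE release M21 (mm10), which gave symbols, coordinates and merged exon lengths. FPKM multiplied by exon length gave whole fragments, within 0.02, in all 4 libraries for 99.4% of matched genes. These recovered fragments were used for depth and for 1 alternative, limma's voom. The lowest number of fragments counted as a floor is 3, which for 2 kb of exon is 0.0924 to 0.103 FPKM, for counting error only. FPKM is a share of a library, so abundant genes that change shift all others.

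The test was that of limma (version 3.58.1, R version 4.3.3) applied to log2(FPKM + 1), group as the only term, a variance trend (lmFit and eBayes, two-sided), and genes with a mean of at least 1 FPKM. Fold changes on this scale understate those of weakly expressed genes. Intervals are 95% confidence intervals from limma, not adjusted for the number of genes. Members, classes and lists were chosen with earlier results of these data known, so no pattern in them is independent support. Given with every library were members past the threshold and, in each class, the 3 with the smallest p and the most abundant. From each other list the genes past the threshold were named, or the 2 with the smallest p. A gene that this rule returned is not described here. Npc2, Lipa, Atp6v1b2, Atp6v1c1, Atp6v0d2, Lamtor4, Fnip1, Flcn, Mtor and the marker genes were given after their values were seen.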

Additional observations from a re-analysis of the deposited data

How the results depend on the processing

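The alternatives changed 1 choice at a time, except voom, which together replaced log2(FPKM + 1) by recovered fragments with precision weights and tested 11056 genes in place of 11120. Of 560 values of members in 14 alternatives, 532 kept their sign and their side of the threshold, 8 gained the call and 6 lost it. The other 14, all of uncalled members, had the other sign: Cd63 under quantile normalization (-0.0496), and 9 members with a library left out. With a library left out the fold change ran over -0.0 to 0.0785 for Tfe3, -0.0123 to 0.0159 for Cd63, -0.1 to 0.0384 for Ostm1, -0.08 to 0.0038 for Tpp1, -0.1422 to 0.0003 for Neu1, -0.1277 to 0.0216 for Atp6v0c, -0.0413 to 0.0035 for Atp6v1b2, -0.4661 to 0.2889 for Atp6v1c1 and -0.0434 to 0.0337 for Atp6v1e1. The number of negative members, 29, was 26 to 30.

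The number of members past the threshold, 1, was 0 without a filter on low values and 0 without the variance trend. At an unadjusted p under 0.05 the fit without a filter held 12 members, beside 2628 of all 21515 genes. The fit without the variance trend held 8 members, beside 1853 of 11120 genes. The number of members past the threshold was 2 at a mean of at least 5 FPKM, where Psap joined Gpnmb and 360 of 7500 genes passed. It was also 2 under quantile normalization, again with Psap, where 145 of 11120 genes passed. It was 6 by voom, with Lipa higher and Gpnmb, Psap, Grn, Tcirg1 and Atp6v1a lower, where voom called 8.29% of all genes. With 1 library left out the call of Gpnmb was lost in each case, and the lone library was assumed to vary like the other group. With the replicate block the number of members past the threshold was 2, Gpnmb and Psap. The labels do not say that equal numbers mark a shared culture, and same-numbered libraries did not deviate together (correlation of deviations 0.0124). Over all genes tested the count, 162, was 0 without a filter (2628 at unadjusted p under 0.05), 360 at a mean of at least 5 FPKM, 5 without the variance trend, 917 by voom, 310 with the replicate block and 2 to 10 with a library left out.

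The V-ATPase median of -0.039 was -0.035 under median-ratio scaling and -0.051 under quantile normalization, and -0.037 to -0.0197 with a library left out, nearest 0 without control replicate 1. The lumenal median of -0.093 was -0.1373 to -0.0616, nearest 0 without 1,5-AG replicate 2, and the TFEB family median of -0.083 was -0.1118 to -0.01, nearest 0 without control replicate 1. The membrane median of -0.11 was -0.1535 to -0.065, nearest 0 without control replicate 2. For these shifts the cause was not tested.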
